A study of Oryza sativa with 8 samples.

Results

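The genes described here are the 185 loci of the rice root transcriptome whose level was lowest in the D6 carbon dot libraries. They were chosen by their own values: the lowest FPKM (fragments per kilobase of gene length, scaled to the library total) of the 6 other libraries had to be at least 5 and at least 1.5 times the higher of the 2 D6 carbon dot libraries. Of 55801 loci in the table, 34269 were above 0 in some library, 13104 met the floor of 5 FPKM, and 185 (1.41% of those) met the ratio. The rule read all 8 libraries, so the low values in D6 carbon dot roots are a description of the choice and get no test.

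The libraries were made from poly(A) RNA of Oryza sativa roots in 4 groups of 2 replicates. D6_100X and D4_100X carry a carbon dot treatment label, and D6_CK and D4_CK are labelled normal. Carbon dots are nanometre-sized carbon particles, applied here in a seed priming experiment. The labels do not define D4, D6 or the scale of 100X, which serve as names only, and they give no cultivar, plant age or pooling. Nothing says that replicates came from separate plants, so p-values measure the spread between these libraries, which may be technical.

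Root cells enlarge by loosening and rebuilding a cellulose wall while microtubules, polymers of tubulin, guide where cellulose is laid down. Vessel and fibre cells then add a thick secondary wall made by a separate set of cellulose synthases, and epidermal cells form root hairs by growth at the tip. Members with known roles in these processes are named below, but a symbol could be matched for 9 of the 185 members, and the other 176 are given by locus identifier without a role.

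The whole numbers behind the deposited FPKM share 1 distribution across libraries. After the gene lengths had been recovered, the sorted whole numbers were compared. They lay within 1% of each other in all 8 libraries for 96.7% of the 1000 highest ranks. The total behind each library was inferred from 1 locus, picked among the 50 most abundant for its agreement across libraries. By that locus it differed by at most 0.0098%. A shared distribution is what quantile normalisation gives, although no source used here names that step. A level is therefore relative to the other genes of its library, the sequencing depth is unknown, and the few most abundant loci can move little. Of 7 green tissue markers 1 passed the expression filter, LOC_Os11g13890, at 3.42 to 7.68 FPKM. The others were near 0, with a highest value in any library of 1.98 FPKM.

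The members spanned moderate to very high levels. Their mean over the 6 other libraries ran from 6.28 to 2851 FPKM with a median of 26.7 FPKM, and 33 of them averaged at least 100 FPKM. The median member stood at 7.25 and 7.32 FPKM in D6_100X, at 15.1 and 16.3 FPKM in D6_CK, at 25.1 and 42.97 FPKM in D4_100X, and at 23.7 and 36.9 FPKM in D4_CK. Together the members made up 1.06% and 1.07% of the summed FPKM in D6_100X, 2.14% and 2.09% in D6_CK, 3.19% and 4.42% in D4_100X, and 3.16% and 3.92% in D4_CK. In median and share the 2 D6_100X libraries, both capped by the rule, agreed closely and the 2 libraries of each D4 group did not. Member by member, replicate 2 over replicate 1 ran from 0.341 to 2.59 in D6_100X and 0.501 to 1.96 in D6_CK. At D4 it ran from 0.501 to 4.59 in D4_100X and 0.542 to 4.33 in D4_CK. In whole roots, fewer cells of a type and less RNA per cell cannot be told apart.

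**Figure D1:**
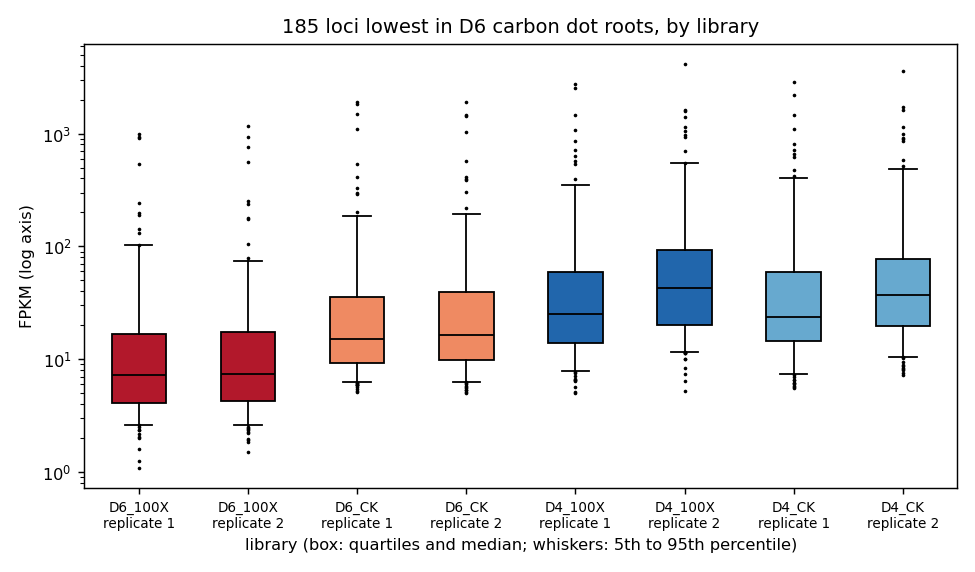
FPKM of the 185 members in each library on a log axis; boxes show quartiles and the median, whiskers the 5th to 95th percentile and points the members beyond. The D6_100X medians (7.25 and 7.32 FPKM) lie lowest because the rule chose them so, the D6_CK medians (15.1 and 16.3 FPKM) lie under the D4 medians, and replicate 2 lies above replicate 1 in both D4 groups.

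The depth of the dip differed among members. The ratio of the lowest of the other libraries to the higher D6_100X library had a median of 1.69, reached 2 in 33 members and 3 in 5, and had a highest value of 4.60. The mean of D6_100X over that of D6_CK had a median of 0.492 and ran from 0.182 to 0.637. For comparison, 24.95% of the 13104 loci at the floor were lower in both D6_100X libraries than in all others, and the median ratio over those loci was 0.867.

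LOC_Os04g46820 on chromosome 4 had the deepest dip. It stood at 16.5 and 12.6 FPKM in D6_100X and 75.6 and 84.1 FPKM in D6_CK. At D4 it stood at 84.5 and 368 FPKM in D4_100X and 124 and 239 FPKM in D4_CK, so replicate 2 was the higher in both D4 groups, by more in D4_100X. Its neighbour LOC_Os04g46810 had the sixth largest ratio, 2.98, with 53.4 and 64.7 FPKM in D6_100X, 200 and 193 FPKM in D6_CK, 231 and 700 FPKM in D4_100X, and 322 and 583 FPKM in D4_CK. Both loci were lowest in D6_100X, intermediate in D6_CK and higher in replicate 2 than in replicate 1 of each D4 group.

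LOC_Os01g11730 was the third deepest and took another course at D4. It had 13.7 and 11.9 FPKM in D6_100X, 76.5 and 51.2 FPKM in D6_CK, 293 and 314 FPKM in D4_100X, and 253 and 231 FPKM in D4_CK. Its D4 replicates agreed, and the 4 groups did not overlap. The other members with a ratio of at least 3 were LOC_Os08g41860 (3.82), LOC_Os01g08130 (3.56) and LOC_Os11g42550 (3.30). In these 3 loci replicate 2 was above replicate 1 in both D4 groups, as in LOC_Os04g46820. LOC_Os04g51520, LOC_Os07g01600 and LOC_Os04g36770 completed the 10 largest ratios with 2.95, 2.85 and 2.79, along with CRSH2, described below.

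Among genes of the secondary wall, the member with a matched name was BC1 (LOC_Os03g30250, chromosome 3). BC1 is a COBRA-like protein that rice needs for cellulose assembly in the thick walls of its stem. BC1 had 11.3 and 8.29 FPKM in D6_100X, 26.1 and 32.6 FPKM in D6_CK, 89.3 and 83.9 FPKM in D4_100X, and 91.0 and 80.0 FPKM in D4_CK. The 2 D4 groups overlapped, and both lay well above D6_CK. In control roots BC1 fell by 1.52 on the log2(FPKM + 1) scale at D6 against D4 (SE 0.17), with limma's adjusted p of 0.00749; without D6_CK replicate 1 this p was 0.063. A second locus of the list, LOC_Os08g05520, had no matched symbol and was also a member. It stood at 4.13 and 3.63 FPKM in D6_100X, 7.36 and 8.65 FPKM in D6_CK, 18.5 and 20.2 FPKM in D4_100X, and 20.5 and 19.3 FPKM in D4_CK.

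These 2 were the members among 8 secondary wall loci, and 7 of the 8 were lowest in D6_100X, against 24.95% of all loci at the floor. The cellulose synthase subunits CESA4, CESA7 and CESA9, which build secondary wall cellulose in rice, missed the rule with ratios of 1.45, 1.46 and 1.41. CESA4 had 58.0 and 40.7 FPKM in D6_100X, 83.8 and 96.6 FPKM in D6_CK, 234 and 172 FPKM in D4_100X, and 223 and 183 FPKM in D4_CK. In control roots 6 of the 8 list loci fell at D6 against D4 by limma and 0 rose, where 4.72% of all tested loci were called lower and 5.42% higher, with a list median of -1.14 on the log2 scale against -0.05 over all 22794 loci tested. Leaving out D6_CK replicate 1 or 2 left 0 or 2 of these calls, and leaving out D4_CK replicate 1 or 2 left 2 or 4. None of the 4 primary wall loci (CESA1, CESA3, CESA8 and CSLF6) was a member, although all 4 were lowest in D6_100X and all 4 fell at D6 against D4 in control roots, a count that was 0 without either D6_CK library and 2 without either D4_CK library. None of 23 lignin loci was a member, and 4 of the 21 tested rose at D6 in control roots by limma while 0 fell (7 and 3 at an unadjusted p under 0.05); without D4_CK replicate 1 or either D6_CK library 0 rose, and without D4_CK replicate 2 or either D6_100X library 2 did.

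The cell type marker sets held 2 to 4 loci each, and the counts of those lowest in D6_100X were not compared by a test. Of all loci at the floor, 24.95% were lowest there. BC1, in the xylem set, is a member and so was chosen by the rule. The 4 xylem and sclerenchyma markers (CESA4, CESA7, CESA9 and BC1, themselves secondary wall genes) were all lowest in D6_100X, and their summed level was 132 to 190 FPKM in D6_100X, 283 to 337 FPKM in D6_CK, 645 to 838 FPKM in D4_100X and 649 to 791 FPKM in D4_CK. Of 4 endodermis and exodermis markers 0 were lowest in D6_100X. Their sum was 766 to 1155 FPKM in D6_100X, 956 to 957 FPKM in D6_CK, 340 to 383 FPKM in D4_100X and 277 to 461 FPKM in D4_CK. Most of it was NIP2-1 and LOC_Os03g01700, with D6_100X means of 694 and 253 FPKM, against 4.36 FPKM for SCR1 and 8.22 FPKM for SHR1. From D4_CK to D6_CK the mean went from 3.22 to 3.98 FPKM in SCR1 and from 7.16 to 7.11 FPKM in SHR1. Of the 2 meristem markers, CDKB2-1 was lowest in D6_100X, at 42.9 and 42.5 FPKM against at least 45.8 FPKM in the other libraries. PCNA was not lowest there. The 2 summed to 110 to 114 FPKM in D6_100X and 134 to 135 FPKM in D6_CK. At D4 they summed to 111 to 124 FPKM in D4_100X and 115 to 139 FPKM in D4_CK. None of these markers was at 0 in every library. The part of cell composition in the members' values was not tested.

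Of 9 expansin loci, wall proteins that loosen the bonds between cellulose and other polymers, 3 were members. EXPA17 (LOC_Os06g01920, chromosome 6), an alpha-expansin that rice needs for root hair elongation, had the largest ratio of them, 2.33. It stood at 3.68 and 7.21 FPKM in D6_100X, 16.8 and 24.96 FPKM in D6_CK, 27.5 and 90.4 FPKM in D4_100X, and 18.4 and 48.8 FPKM in D4_CK. Replicate 2 of each D4 group was well above replicate 1, and D6_CK overlapped D4_CK. Of the other root hair loci, CSLD1, a cellulose synthase-like protein of hair tip growth, was no member: it had 4.41 and 7.51 FPKM in D6_100X, 11.3 and 11.4 FPKM in D6_CK, 10.02 and 24.9 FPKM in D4_100X, and 5.13 and 18.8 FPKM in D4_CK. The third, LOC_Os06g08500, was no member either and was not lowest in D6_100X: it had 12.04 and 14.6 FPKM there, 14.02 and 16.6 FPKM in D6_CK, 10.3 and 20.1 FPKM in D4_100X, and 10.5 and 17.5 FPKM in D4_CK. EXPA17, chosen by the rule, was the 1 of the 3 that was lowest in D6_100X, against 24.95% of all loci at the floor. The 3 summed to 20.1 to 29.3 FPKM in D6_100X, 42.1 to 53.0 FPKM in D6_CK, 47.8 to 135 FPKM in D4_100X and 34.1 to 85.1 FPKM in D4_CK. Their part in the result was not tested.

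The beta-expansins EXPB2 (LOC_Os10g40710) and EXPB3 (LOC_Os10g40720) are neighbours on chromosome 10. EXPB2 had 26.9 and 39.6 FPKM in D6_100X, 85.3 and 60.6 FPKM in D6_CK, 104 and 163 FPKM in D4_100X, and 88.8 and 124 FPKM in D4_CK. EXPB3 had 59.3 and 55.0 FPKM in D6_100X, 91.4 and 93.0 FPKM in D6_CK, 332 and 166 FPKM in D4_100X, and 351 and 190 FPKM in D4_CK. The D4 replicates of EXPB3 ran opposite to those of EXPB2, with replicate 1 the higher. EXPB6 and EXPB4, next to them, had ratios of 1.35 and 1.10. By limma 0 of the 9 expansins passed the D6 against D4 test in control roots (3 lower and 1 higher at an unadjusted p under 0.05), although 3 passed as lower without either D4_100X library and 1 without D4_CK replicate 2. For EXPB3 the difference was -1.48 on the log2 scale with limma's adjusted p of 0.0531. How the authors' counting treated reads shared by such related copies is not given, so the split between neighbours is uncertain.

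GLU6 (LOC_Os04g57860, chromosome 4), of the endo-1,4-beta-glucanase family that trims wall glucans, was the member among 4 loci listed for that family. It had 4.004 and 6.63 FPKM in D6_100X, 15.1 and 19.3 FPKM in D6_CK, 15.7 and 63.0 FPKM in D4_100X, and 10.1 and 37.0 FPKM in D4_CK. Its lowest other library was D4_CK replicate 1, and the control groups overlapped. GLU1, GLU5 and GLU14 had ratios of 0.776, 0.679 and 0.523. This list, and those of the beta-tubulins and the CRSH genes below, were added later with results of these data known. Each holds members, so their counts of members are no evidence about the families.

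The list of beta-tubulin loci, which code for a subunit of microtubules, was also added later. Of its 8 loci TUB4 and TUB8 were members. TUB4 (LOC_Os01g59150, chromosome 1) had 196 and 178 FPKM in D6_100X, 299 and 302 FPKM in D6_CK, 398 and 543 FPKM in D4_100X, and 421 and 485 FPKM in D4_CK. TUB8 (LOC_Os03g45920, chromosome 3) had 103 and 105 FPKM in D6_100X, 188 and 183 FPKM in D6_CK, 242 and 466 FPKM in D4_100X, and 253 and 396 FPKM in D4_CK. In both genes D6_CK lay below all 4 D4 libraries. Among the other 6, TUB1 came nearest with a ratio of 1.37, while TUB2, TUB5 and TUB7 had ratios under 1. TUB1 was also the 1 of the 8 that passed limma as lower at D6 against D4 in control roots (-0.55 on the log2 scale, adjusted p 0.0187); the count was 2 without either D4_100X library and 0 without either D6 library of either treatment or without D4_CK replicate 1. The same caution on shared reads holds for the tubulins.

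A pair of neighbours on chromosome 5, CRSH2 (LOC_Os05g06920) and CRSH3 (LOC_Os05g06940), code for calcium-activated synthetases of the alarmone ppGpp, which act in plastids. CRSH2 had 17.1 and 16.0 FPKM in D6_100X, 49.3 and 51.4 FPKM in D6_CK, 148 and 181 FPKM in D4_100X, and 103 and 182 FPKM in D4_CK. CRSH3 had 7.83 and 7.31 FPKM in D6_100X, 18.1 and 20.3 FPKM in D6_CK, 32.8 and 35.9 FPKM in D4_100X, and 23.9 and 33.9 FPKM in D4_CK. In both genes D6_CK lay between D6_100X and the D4 libraries with no overlap. CRSH2 fell by 1.43 on the log2 scale at D6 against D4 in control roots (limma, SE 0.25, adjusted p 0.0203). With only the 4 control libraries fitted, limma's adjusted p was 0.0534. The call was also lost without either D6_CK library, where the difference was -1.40 without replicate 1 and -1.46 without replicate 2. The third gene of the group, CRSH1, lay just upstream in locus order and was low throughout, at 2.99 and 3.22 FPKM in D6_100X, 2.90 and 2.36 FPKM in D6_CK, 3.11 and 2.30 FPKM in D4_100X, and 2.41 and 2.75 FPKM in D4_CK.

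**Figure D2:**
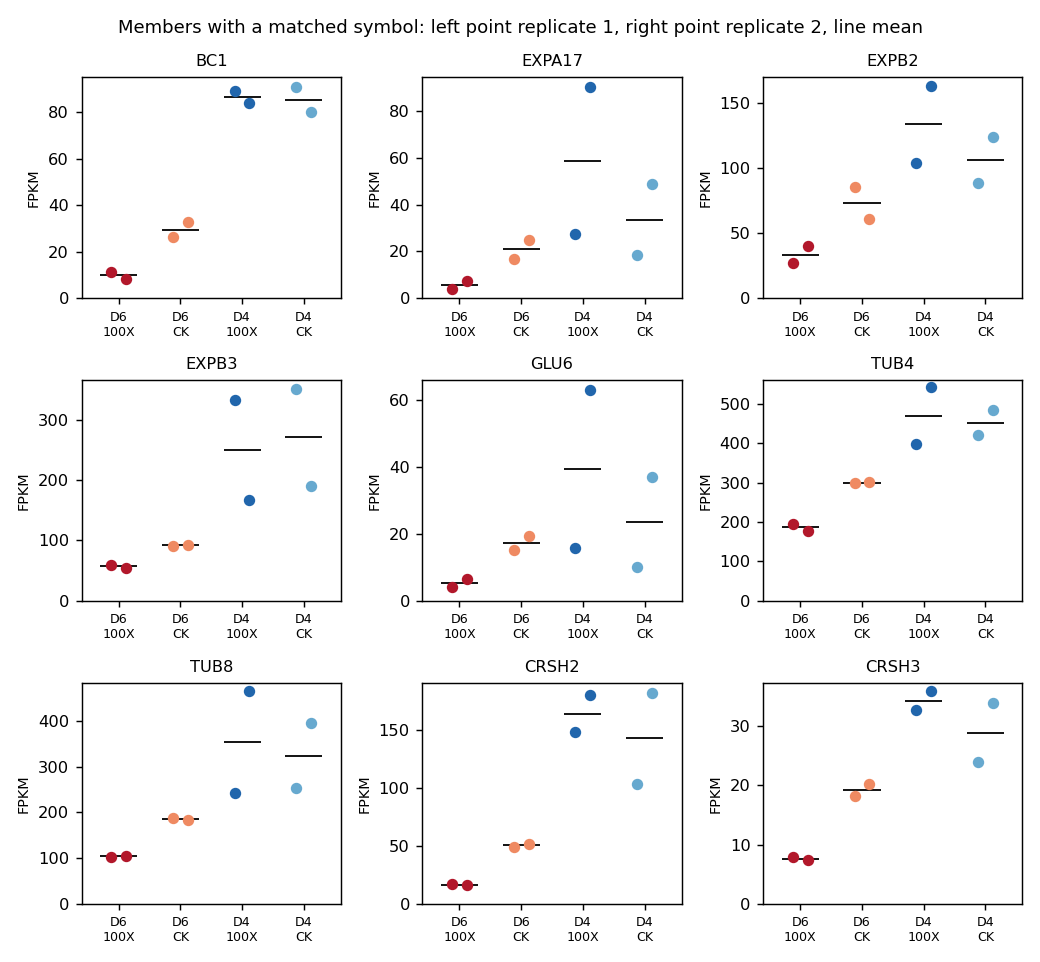
FPKM of the 9 members with a matched symbol in D6_100X, D6_CK, D4_100X and D4_CK; points are libraries (replicate 1 left, replicate 2 right) and lines are group means. BC1 has close D4 replicates near 80 to 91 FPKM, whereas EXPA17 and GLU6 are more than 2-fold higher in replicate 2 of each D4 group.

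The most abundant members had no matched symbol. LOC_Os02g44310 had 981 and 1172 FPKM in D6_100X, 1894 and 1894 FPKM in D6_CK, 2761 and 4119 FPKM in D4_100X, and 2892 and 3549 FPKM in D4_CK. LOC_Os12g42876 differed from it in being level across the other 3 groups, with 929 and 929 FPKM in D6_100X, 1500 and 1446 FPKM in D6_CK, 1446 and 1610 FPKM in D4_100X, and 1446 and 1610 FPKM in D4_CK. Its equal values across libraries of different groups reflect ranks held in the shared distribution, which limits the precision of the few highest loci. LOC_Os03g01300 was higher in replicate 1 of each D4 group, with 2512 and 1572 FPKM in D4_100X and 2216 and 1712 FPKM in D4_CK. LOC_Os05g12640, LOC_Os03g62060 and LOC_Os10g40520 were higher in replicate 2 of both D4 groups, and LOC_Os05g04500 in replicate 1. LOC_Os03g53800 had 242 and 253 FPKM in D6_100X, 411 and 415 FPKM in D6_CK, 854 and 937 FPKM in D4_100X, and 806 and 896 FPKM in D4_CK.

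The course from D4 to D6 in control roots was examined next. In 134 members (72.4%) both D6_CK libraries lay below all 4 D4 libraries, against 25.2% of all tested loci, and in 1 member, LOC_Os12g07430, they lay above all 4, against 20.2%. The mean of D6_CK over that of D4_CK had a median of 0.572 among members and 0.960 over all tested loci. By limma, 55 of the 185 members (29.7%) passed an adjusted p of 0.05 as lower in D6_CK than in D4_CK, against 4.72% of all tested loci, and 0 as higher, against 5.42%; at an unadjusted p under 0.05 the counts were 107 lower and 0 higher, against 3316 and 3028 of all tested loci. The called members' differences ran from -1.93 to -0.38 on the log2 scale. Part of this direction comes from the choice, since a locus with low D4 values cannot meet the rule. By the D6 libraries alone the same floor and ratio gave 269 loci. Of these, 134 (49.8%) had D6_CK below all D4 libraries and 28 (10.4%) above, and 55 passed as lower and 8 as higher. The rule's D4 condition removed 84 of the 269 loci, with D6_CK below all D4 libraries in 0 of them and above in 27. All 8 loci that passed as higher were among those removed, so the 0 among members comes from the choice.

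The count of 55 also rested on single libraries. Leaving out replicate 1 or 2 of D6_CK brought it to 4 or 21, and leaving out replicate 1 or 2 of D4_CK to 20 or 29. It was 84 without either library of D4_100X. With a term for the replicate number within D4, added after the data were seen, it was 131. The calls over all tested loci, in both directions, moved too: there were 2311 with all libraries, 60 or 657 without replicate 1 or 2 of D6_CK, 372 or 1412 without replicate 1 or 2 of D4_CK, 2904 or 2911 without replicate 1 or 2 of D4_100X, and 5170 with the D4 replicate term. The 5 members with the lowest limma p were LOC_Os01g22640, LOC_Os05g42070, LOC_Os11g35930, LOC_Os05g30010 and LOC_Os08g05520. LOC_Os01g22640 had 9.26 and 9.92 FPKM in D6_CK and 25.6 and 28.1 FPKM in D4_CK, a difference of -1.39 on the log2 scale (SE 0.11, limma adjusted p 0.0051). LOC_Os11g35930 had 7.51 and 6.40 FPKM in D6_CK and 22.1 and 29.0 FPKM in D4_CK, a difference of -1.73 (SE 0.16, limma adjusted p 0.00649). LOC_Os05g30010 and LOC_Os08g05520 lost the call without D6_CK replicate 1, with adjusted p of 0.0546 and 0.0537. LOC_Os01g11730 had the largest difference of all members, -1.93 (SE 0.19, limma adjusted p 0.00652).

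At D4 no difference between carbon dot and control roots was called among the members. By limma 0 of 185 passed in either direction, as did 0 of all 22794 loci (0% called); at an unadjusted p under 0.05, 3 members were higher and 1 lower in D4_100X, against 215 and 217 of all tested loci. The mean of D4_100X over that of D4_CK had a median of 1.07 among members and 0.992 over all tested loci. Both D4_100X libraries lay above both D4_CK libraries in 7 members (3.78%, against 8.7% of tested loci) and below them in 9 (4.86%, against 10.7%). LOC_Os09g33830, named after its values were seen, had the largest log2 difference of the 7, 0.60: it had 19.7 and 18.1 FPKM in D4_100X and 10.9 and 13.5 FPKM in D4_CK, but 1.247 and 3.23 FPKM in D6_100X and 6.07 and 6.30 FPKM in D6_CK. Between libraries of the same replicate number, D4_100X over D4_CK had a median among members of 1 for replicate 1 and 1.14 for replicate 2. Over all tested loci the medians were 0.986 for replicate 1 and 0.994 for replicate 2. In replicate 1, 94 members (50.8%) were higher and 91 lower, against 46.3% of tested loci higher. In replicate 2, 135 members (73.0%) were higher and 50 lower, against 48.8% of tested loci higher.

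**Figure D3:**
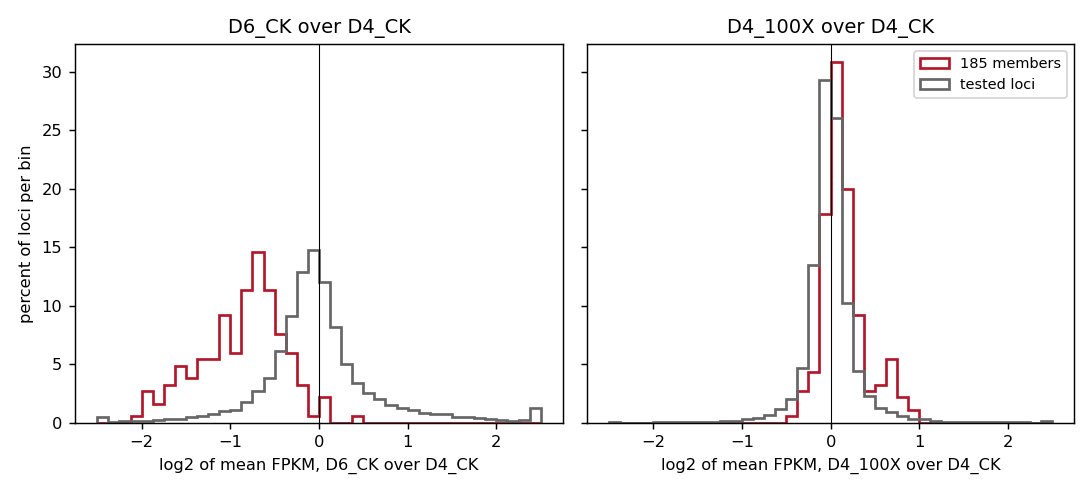
Percent of loci by the log2 ratio of group means, for the 185 members and for the tested loci with values above 0 in both groups; values beyond 2.5 in either direction are in the end bins. In the left panel (D6_CK over D4_CK) the members lie mostly left of 0, around a median ratio of 0.572, and in the right panel (D4_100X over D4_CK) they lie close to 0, around 1.07.

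The D4 libraries of most members differed by replicate number. In 140 members (75.7%) both D4 libraries numbered replicate 2 lay above both numbered replicate 1, against 27.1% of tested loci, and in 14 (7.57%) they lay below, against 32.9%. The rule sets no order among D4 libraries. Replicate 2 over replicate 1 had a median of 1.47 in D4_100X and 1.35 in D4_CK over the members, and of 0.985 in D4_100X and 0.970 in D4_CK over all tested loci. It was at least 2 for the mean of both treatments in 40 members (21.6%), against 4.13% of tested loci. At D6 the replicates did not part in this way: the median of replicate 2 over replicate 1 was 1.02 in D6_100X and 1.01 in D6_CK. The labels tie nothing to the replicate number.

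Across all 22794 tested loci the log2 difference between the D4 replicates and that between D6_100X and D6_CK, which share no library, had Pearson's r of -0.30. This is a description across genes, which are not independent, and the whole numbers behind all values share 1 normalised distribution. No such value is given over the members, because the rule chose them by their D6 difference. The part of whatever separates the D4 replicates in the members' D6 values was not tested.

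**Figure D4:**
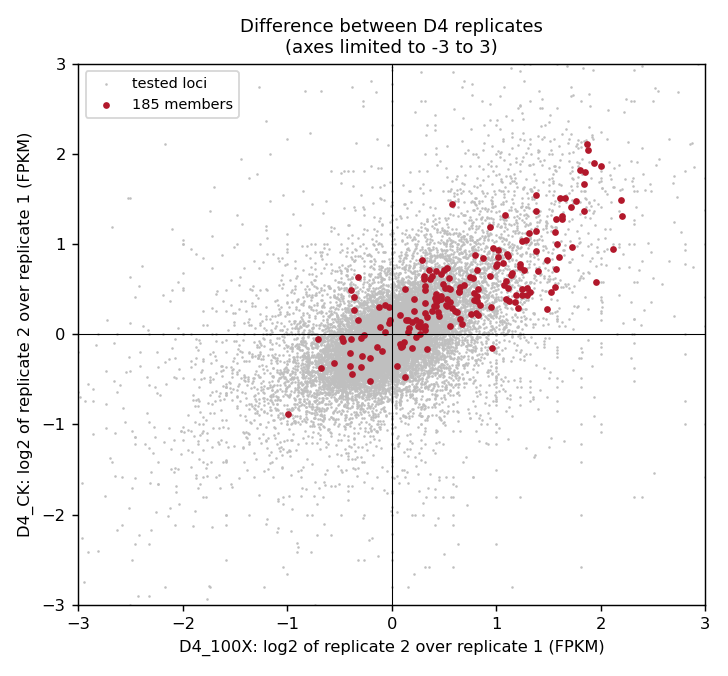
Log2 of replicate 2 over replicate 1 in D4_100X (x axis) and in D4_CK (y axis); grey points are tested loci and red points the 185 members, with both axes limited as drawn. Most members lie in the upper right, higher in replicate 2 under both labels. These include the 140 of 185 in which both replicate 2 libraries lay above both replicate 1 libraries.

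Some members were neighbours in locus order. Of the 185, 36 (19.5%) had another member within 50 units of locus number on the same chromosome, against 3.78% of the 12919 other loci at the floor. They formed 16 runs: 13 of 2, 2 of 3 and 1 of 4. The share of loci at the floor that were members was highest on chromosome 7 (2.1%) and chromosome 10 (2.02%) and lowest on chromosome 6 (0.58%). In 10 of the 16 runs every locus was higher in both replicate 2 libraries of D4. Taken singly, 75.7% of all members and 27.1% of tested loci had that order. Whether neighbours differ in this from other members was not tested.

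The run of 4 was on chromosome 10 and its loci did not move alike. LOC_Os10g40510 had 542 and 556 FPKM in D6_100X, 1094 and 1040 FPKM in D6_CK, 1078 and 1153 FPKM in D4_100X, and 1094 and 998 FPKM in D4_CK, so it was level outside D6_100X. LOC_Os10g40520 had 191 and 237 FPKM in D6_100X, 534 and 566 FPKM in D6_CK, 634 and 1405 FPKM in D4_100X, and 719 and 1151 FPKM in D4_CK. LOC_Os10g40470 and LOC_Os10g40480 were lower in D6_CK than in all D4 libraries.

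The runs of 3 were more alike inside. On chromosome 1, LOC_Os01g07030, LOC_Os01g07050 and LOC_Os01g07060 were 2.80 to 3.88 times as high in replicate 2 as in replicate 1 at D4. LOC_Os01g07050 had 2.66 and 6.19 FPKM in D6_100X, 12.1 and 9.80 FPKM in D6_CK, 19.99 and 72.9 FPKM in D4_100X, and 10.6 and 45.8 FPKM in D4_CK. On chromosome 3, LOC_Os03g13150, LOC_Os03g13160 and LOC_Os03g13200 were 2.01 to 3.82 times as high in replicate 2. LOC_Os03g13160 had 2.60 and 1.496 FPKM in D6_100X, 7.48 and 14.6 FPKM in D6_CK, 12.1 and 44.3 FPKM in D4_100X, and 5.76 and 23.8 FPKM in D4_CK. Whether such neighbours are near-identical copies that share reads cannot be read from these values.

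**Figure D5:**
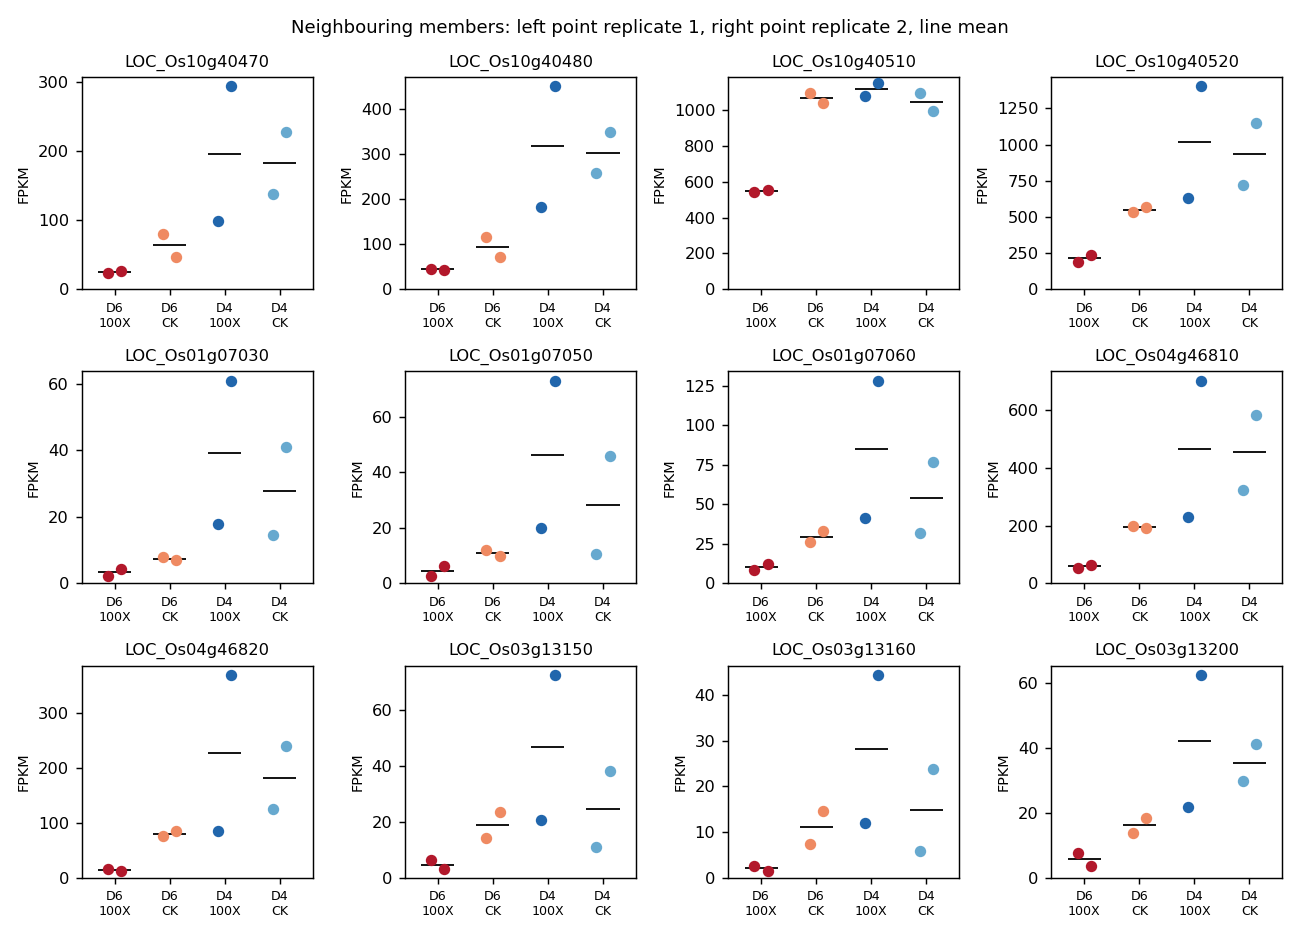
FPKM by group for 12 members in the runs of 4 and 3 and in the chromosome 4 pair; points are libraries (replicate 1 left, replicate 2 right) and lines are group means. LOC_Os10g40510 is level at 998 to 1153 FPKM outside D6_100X, and the loci of the chromosome 1 and chromosome 3 runs are each higher in replicate 2 at D4.

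The gene length recovered from the values, which the rule did not use, had a median of 1440 bases among members, with quartiles of 957 and 1925, against 1783 bases for the other loci at the floor, with quartiles of 1235 and 2478.

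The threshold cut through a continuous range. The 3 members nearest to it were LOC_Os02g41904, LOC_Os10g39160 and LOC_Os03g57990 with ratios of 1.501, 1.503 and 1.504, and the nearest loci outside were LOC_Os07g35480, LOC_Os05g48850 and LOC_Os02g16030 with 1.499, 1.492 and 1.491. The lowest of the other 6 libraries was a D6_CK library for 157 members, a replicate 1 D4 library for 22 and a replicate 2 D4 library for 6. Among the members, the ratio was therefore set in most cases by the gap between D6_100X and D6_CK. The D4 libraries mattered for others, since they removed 84 of the 269 loci found by the D6 libraries alone.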

How the data were processed

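Poly(A) RNA of 8 rice root libraries was measured. The authors deposited FPKM per locus; the submitters' processing notes name featureCounts 1.6.4, SAMtools, HISAT2 and fastp. For their settings, the build, the annotation and the normalisation, the entry is "not given in the sources used here". Gene lengths that make a locus's 8 values whole numbers (within 0.005) were recovered for 34269 loci; those numbers are not reads, because their distribution is shared, so no count test was run and depth is unknown.

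limma 3.58.1 (R 4.3.3) tested differences on log2(FPKM + 1), which understates changes of low genes, with 4 group means, a mean-variance trend and 4 residual degrees of freedom. The 22794 loci with at least 1 FPKM in at least 2 libraries were tested, with Benjamini-Hochberg adjustment over all of them and a threshold of 0.05. The code was tested on simulated data. D6_100X against D6_CK or D4_100X got no test on the members, because the rule used it.

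Named loci are the 10 members with the largest ratio, the 10 most abundant, up to 5 with the lowest p per direction and contrast, members on a gene list or with a symbol, and the 3 on each side of the threshold. Neighbouring loci, list loci that are no members and those said to be named after their values were seen were added. Symbols rest on locus identifiers recalled from the literature, kept where the RefSeq table of assembly ASM3414082v1 places the symbol on that chromosome, no more than 0.1 of its length away from where the identifier falls; this match is indirect. Members and lists were chosen with earlier results of these data known. The beta-tubulin, ppGpp synthetase and endoglucanase lists were added later, and each holds members. The nitrogen list (7 loci) held 0 members. Leaving out libraries, other filters, pseudocounts, centring and a replicate term were the alternatives.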

Additional observations from a re-analysis of the deposited data

Results flagged for a closer look

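In 7 members both D4_100X libraries were above both D4_CK libraries while both D6_100X libraries were below both D6_CK libraries. The log2(FPKM + 1) differences at D4 were 0.60 in LOC_Os09g33830, 0.33 in LOC_Os01g11730, 0.30 in LOC_Os03g43010, 0.27 in LOC_Os04g48130, 0.26 in LOC_Os03g57990, 0.23 in LOC_Os05g42070 and 0.22 in LOC_Os12g16200. The rule fixes the direction at D6, the difference between D4 and D6 was not tested, and such non-overlap at D4 was seen in 8.7% of all tested loci, against 3.78% of the members.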

How the results depend on the processing

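The number of members was 558 at a ratio of 5 to 4, 33 at a ratio of 2, 333 with a floor of 1 FPKM, 124 with a floor of 10 FPKM, 435 by the replicate 1 libraries alone and 587 by the replicate 2 libraries alone. The last 2 sets shared 232 loci, 53.3% of the first and 39.5% of the second. Leaving out 1 library gave 186 to 326 loci, the highest without D6_100X replicate 1. All members were among those found with lower thresholds or fewer libraries, as the rule requires.

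The carbon dot effect at D4 gave 0 members under every alternative run. The count lower in D6_CK than in D4_CK, 55, was 37 to 59 under the other pseudocount, filters, centring, robust fit and 4-library fit, and 4 to 84 when 1 library was left out; 0 members were higher in each. A replicate block over all groups gave 70. The replicate numbers did not pair the samples across all groups. Same-numbered libraries deviated together between the D4 groups (r 0.60) but not between the D6 groups (r -0.11) or the control groups (r -0.07). A replicate term within D4 alone, chosen after seeing the data, gave 131. Of 11 named members called lower, 7 lost the call somewhere, in 12 of 176 values, and 0 reversed. With 2 libraries a group and unknown depth, small differences were not detectable. At D4 larger ones could be missed too: the highest carbon dot difference among members, 0.91 on the log2 scale, was not called. In EXPA17 that difference was 0.71 with an SE of 0.65.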
